A study of Mus musculus with 20 samples.

Results

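Nr4a1, Nr4a2 and Nr4a3 encode the Nr4a family of nuclear receptors, and their transcripts were followed across CD8 T cells, macrophages and tumour cells taken from mouse melanomas. The members were chosen by name. All 3 were present among the 28108 genes measured in each of 4 single-cell libraries. The libraries came from mice bearing B16-OVA, a melanoma line engineered to make chicken ovalbumin, collected 8 days after transferred OT-I T cells, whose receptor sees an ovalbumin peptide, were given. The groups, with 1 library each, were Tet2 knockout T cells with anti-PD-L1, an antibody that blocks the PD-1 ligand, Tet2 knockout T cells without it, wild-type T cells with anti-PD-L1 and wild-type T cells without it. The knockout donors were Tet2-/- mice crossed to OT-I mice. The labels name the same tumour line for every group and give no sex or age of the mice, no dose of antibody, no number of pooled animals and no way of telling transferred from host CD8 T cells.

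Nr4a receptors are transcription factors without a known natural hormone, and their amount is set mostly by how much is made. They are immediate early genes. In T cells, signalling through the antigen receptor induces all of them quickly through calcium, NFAT and CREB family factors, and in chronically stimulated T cells they help drive the exhausted state. In macrophages inflammatory signals induce them, and in pigment cells the hormone pathway that acts through cyclic AMP does so.

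Nr4a1 (ENSMUSG00000023034.7, also called Nur77) lies on chromosome 15 at 101253902 to 101274795, Nr4a2 (ENSMUSG00000026826.13, Nurr1) on chromosome 2 at 57106830 to 57124003 and Nr4a3 (ENSMUSG00000028341.9, Nor1) on chromosome 4 at 48045078 to 48086447, by RefSeq on GRCm38.p6. Because all 3 are induced together, the 250 bases before the RefSeq start site of each are shown, with the letters TGACG or their reverse complement CGTCA in capitals. TGACG is the core that CREB family factors recognise. The Nr4a1 window, chr15:101266596-101266845 on the plus strand, precedes a start site inside the annotated gene. The Nr4a2 window is chr2:57124004-57124253 on the minus strand and the Nr4a3 window chr4:48045055-48045304 on the plus strand. The Nr4a3 window also precedes a start site inside the annotated gene, whose first base, 48045078, lies within the window.
Nr4a1: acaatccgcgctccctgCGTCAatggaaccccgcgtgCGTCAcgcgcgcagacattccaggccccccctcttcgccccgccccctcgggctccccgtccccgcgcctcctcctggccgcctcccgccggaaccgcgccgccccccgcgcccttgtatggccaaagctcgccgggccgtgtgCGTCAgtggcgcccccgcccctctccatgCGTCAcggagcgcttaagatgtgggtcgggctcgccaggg
Nr4a2: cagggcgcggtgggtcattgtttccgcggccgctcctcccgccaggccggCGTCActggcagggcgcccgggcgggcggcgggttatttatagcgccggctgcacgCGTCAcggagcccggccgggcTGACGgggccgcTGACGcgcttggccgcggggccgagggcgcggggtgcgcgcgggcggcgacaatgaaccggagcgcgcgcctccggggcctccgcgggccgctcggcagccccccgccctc
Nr4a3: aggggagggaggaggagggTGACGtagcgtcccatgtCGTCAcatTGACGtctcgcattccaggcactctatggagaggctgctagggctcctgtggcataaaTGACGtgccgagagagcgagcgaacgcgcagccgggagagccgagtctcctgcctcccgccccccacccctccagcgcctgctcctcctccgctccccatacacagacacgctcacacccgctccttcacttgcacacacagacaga
Each window held 4 copies of this core, counting both strands. Of all 32851 RefSeq promoter windows of that length, 17.8% held at least 1 copy and 0.137% held 4 or more. These were not matched for G and C content, which was 74.4%, 80.0% and 63.6% before Nr4a1, Nr4a2 and Nr4a3. The shares therefore do not tell how rare 4 copies are among promoters of like content. The full palindrome TGACGTCA was in none of the 3 windows and in 1.55% of all. The related letters TGCGTCA, which contain the core, occurred 4 times before Nr4a1 and not before the other members, and 1.75% of all windows held them. TTTCC, the core bound by NFAT, was found in the Nr4a2 window alone and in 55.6% of all. These matches are descriptions of the letters and say nothing of which factor bound in these cells.

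After filtering, 7380 cells remained, and 5061 of them were CD8 T cells by their CD8 and CD3 transcripts. Knockout with anti-PD-L1 had 1033 of them and knockout untreated 1567, against 1333 for wild-type with anti-PD-L1 and 1128 for wild-type untreated, with median depths of 6831, 4399, 5368 and 3750 UMIs in that order. The labels call every library CD8+ TILs, tumour-infiltrating lymphocytes, yet CD8 T cells made up 81.0% and 70.7% of kept cells in knockout with anti-PD-L1 and knockout untreated, against 83.3% and 49.3% in wild-type with anti-PD-L1 and wild-type untreated. A UMI, or unique molecular identifier, stands for 1 captured transcript. The wild-type untreated library stood apart. In it 999 of its CD8 T cells, or 88.6%, were in the Dapl1-high and Gzmc-high clusters, against 21, 50 and 21 cells in the other 3 libraries, and 40.4% of its kept cells resembled melanoma cells, against 3.92% to 8.53%. Y-linked transcripts were found in 0% and 0.128% of CD8 T cells of knockout with anti-PD-L1 and knockout untreated, against 14.1% and 10.8% of those of wild-type with anti-PD-L1 and wild-type untreated, so sex and genotype cannot be told apart for part of the cells. Tet2 transcripts counted at their 3′ end check nothing about the knockout, as the labels do not give the deleted part. With 1 library per group no difference between groups could be tested. All intervals are 95% intervals for counting error alone, and in sums over cells fewer expressing cells and fewer transcripts per cell are told apart only by the shares of cells given beside them.

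In CD8 T cells all 3 Nr4a genes were lowest in wild-type untreated. Levels are UMIs of the gene per 1000000 UMIs (CPM) summed over a library's CD8 T cells. Nr4a1 stood at 194 CPM (185 to 204) in knockout with anti-PD-L1 and 145 (137 to 154) in knockout untreated, against 221 (211 to 231) in wild-type with anti-PD-L1 and 23.0 (18.9 to 27.6) in wild-type untreated. Nr4a2 stood at 260.2 (249 to 272), 201 (191 to 211), 288 (277 to 299.8) and 111 (102 to 120.4) CPM in the same order. The order of the libraries was thus the same for both genes, highest in wild-type with anti-PD-L1, and no neighbours in that order overlapped in their counting intervals. Nr4a3 was the least counted member, at 35.6 (31.6 to 40.0), 30.7 (27.0 to 34.8), 39.5 (35.3 to 44.0) and 11.1 (8.32 to 14.4) CPM. Its 3 higher libraries overlapped with their neighbours, and wild-type untreated lay below them all.

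**Figure D1:**
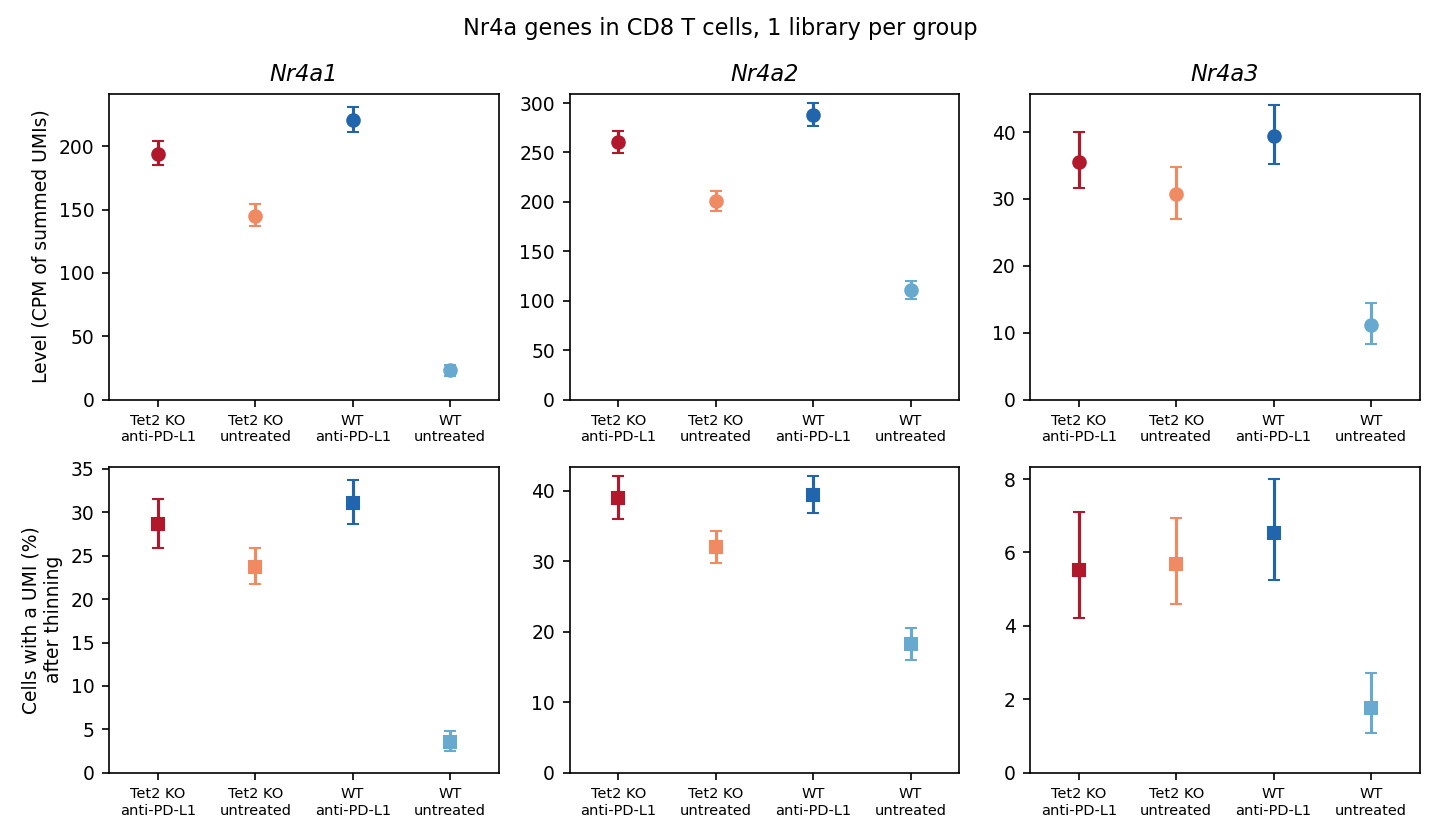
Nr4a transcripts in CD8 T cells of each library. The upper row gives CPM of summed UMIs with exact Poisson 95% intervals and the lower row the percentage of cells with a UMI after thinning every cell to 2000 UMIs, with exact binomial 95% intervals. Wild-type untreated is the lowest point in all 6 panels, with Nr4a1 at 23.0 CPM against 145 to 221 CPM elsewhere.

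Fewer cells held the transcripts in wild-type untreated, also at equal depth. With every CD8 T cell thinned to 2000 UMIs, which left none out, Nr4a1 was seen in 28.7% (25.9% to 31.5%) and 23.7% (21.7% to 25.9%) of cells in knockout with anti-PD-L1 and knockout untreated, against 31.1% (28.7% to 33.7%) in wild-type with anti-PD-L1 and 3.55% (2.55% to 4.80%) in wild-type untreated. Nr4a2 was seen in 39.0%, 32.0%, 39.4% and 18.3%, and Nr4a3 in 5.52%, 5.68%, 6.53% and 1.77%. Unthinned, the shares for Nr4a1 were 59.3%, 43.3%, 54.5% and 8.07%. As a low point for free RNA, 0.649% of the 925 melanoma-like cells of wild-type untreated held an Nr4a2 UMI when thinned alike, and 2.49% unthinned. Their unthinned median was 10199 UMIs against 3750 in that library's CD8 T cells. Thinning removes more from the deeper cells, so the unthinned share is given too. The shares of wild-type untreated CD8 T cells with Nr4a2, 18.3% thinned and 31.8% unthinned, lay above those values. The other members were better detected in melanoma-like cells and give no such low point.

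Untreated knockout CD8 T cells held more of all 3 transcripts than untreated wild-type cells. The log2 fold was 2.66 (2.38 to 2.96) for Nr4a1, a 6.34-fold difference, 0.86 (0.72 to 1.00) for Nr4a2 and 1.47 (1.04 to 1.92) for Nr4a3. Among cells with Xist, which female cells express, and no Y-linked UMI, the folds were 2.83, 0.87 and 1.55. These were 1471 knockout and 774 wild-type cells, and the part of sex in the folds was not tested. Calls of higher or lower needed a difference of at least 1.5-fold in a gene that averaged 20 CPM or more over all 4 libraries. All 3 members passed that floor, Nr4a3 only because of its 3 higher libraries, and all 3 were higher in this comparison, as were 7.94% of the 4623 genes past the floor, while 6.88% were lower. With anti-PD-L1 the genotypes were close. Nr4a1 had a log2 fold of knockout over wild-type of -0.18 (-0.28 to -0.09), Nr4a2 of -0.15 (-0.23 to -0.06) and Nr4a3 of -0.15 (-0.38 to 0.08), so 0 members passed 1.5-fold, where 1.12% of genes were higher and 1.45% lower.

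Over all CD8 T cells, with anti-PD-L1 all 3 members were past 1.5-fold over untreated in wild-type cells, and none was in knockout cells. In knockout cells the log2 folds of anti-PD-L1 over untreated were 0.42 (0.31 to 0.53) for Nr4a1, 0.37 (0.28 to 0.47) for Nr4a2 and 0.21 (-0.04 to 0.47) for Nr4a3. Within clusters Nr4a1 had 0.70 (0.34 to 1.06) in the resting Tcf7-positive one, past 1.5-fold, and 0.37 (0.14 to 0.60) in the chemokine-high one. It had 0.17 (-0.11 to 0.45) in the cycling Tcf7-low, -0.12 (-0.42 to 0.19) in the Cxcr6-positive and -0.02 (-0.26 to 0.21) in the cycling Tcf7-positive one. Nr4a3 had 0.95 (0.08 to 1.84) in the resting Tcf7-positive and 0.96 (0.24 to 1.73) in the chemokine-high one, both past 1.5-fold. In the other clusters compared, Nr4a3 had -0.34 to 0.33. Over all CD8 T cells of the knockout libraries 2.86% of genes were higher and 1.02% lower by the same rule. In wild-type cells the log2 folds of Nr4a1, Nr4a2 and Nr4a3 were 3.27 (2.99 to 3.55), 1.38 (1.24 to 1.52) and 1.84 (1.42 to 2.28). All were past 1.5-fold, as were 11.4% of genes in that direction, with 20.4% lower. Both comparisons in which all 3 members were higher share 1 reference, wild-type untreated, the library that stood apart. The median log2 fold of all genes was -0.10 for knockout over wild-type untreated and -0.18 for anti-PD-L1 over untreated in wild-type, and TMM scaling moved the wild-type one to -0.04. TMM scaling also changed the split of genes past 1.5-fold, which became 439 higher and 221 lower in place of 367 and 318 for knockout over wild-type untreated, 27 and 81 in place of 52 and 67 for knockout over wild-type with anti-PD-L1, and 701 and 624 in place of 527 and 944 for anti-PD-L1 over untreated in wild-type. The members' directions and calls were the same with it.

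Part of the difference from wild-type untreated remained within clusters. In the cycling Tcf7-positive cluster, which expresses the progenitor factor Tcf7 and cell division genes, Nr4a1 stood at 119.5 CPM in 595 untreated knockout cells and 43.1 CPM in 61 untreated wild-type cells, a log2 fold of 1.47 (0.65 to 2.44). In the Dapl1-high cluster it stood at 124 CPM in 22 knockout cells and 26.0 CPM in 657 wild-type cells (2.26, interval 1.38 to 3.05), and in the Gzmc-high cluster at 147 CPM in 28 knockout cells and 14.9 CPM in 342 wild-type cells (3.30, interval 2.33 to 4.25). In the cycling Tcf7-low and Cxcr6-positive clusters the 26 and 23 wild-type untreated cells held 1 and 0 Nr4a1 UMIs, against 151 and 141 UMIs in 157 and 215 knockout untreated cells. Nr4a1 was thus higher in knockout in each of the 5 clusters with at least 20 cells in both libraries. Nr4a2 had smaller folds in these 5 clusters, 0.31 (-0.14 to 0.80), 0.56 (-0.20 to 1.23) and 0.32 (-0.42 to 0.99) in the cycling Tcf7-positive, Dapl1-high and Gzmc-high clusters, each with an interval that included 0. It had 0.87 (0.03 to 1.85) in the cycling Tcf7-low and 0.80 (-0.21 to 2.03) in the Cxcr6-positive cluster, both past 1.5-fold, from 12 and 8 UMIs in wild-type untreated. Given the same mix of these 5 clusters, the untreated log2 folds of knockout over wild-type were 2.27, 0.47 and 0.94 for Nr4a1, Nr4a2 and Nr4a3, and Nr4a2 was then under 1.5-fold.

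Among CD8 T cell clusters Nr4a1 was highest in the chemokine-high one, and Nr4a2 had a narrower range. Clusters were made without the 3 members, but genes that move with them still shaped the clusters, so these levels are a description. The chemokine-high cluster, led by Ccl4, Xcl1, Gzma, Ccl3 and Ifng, held 923 cells of the 3 libraries other than wild-type untreated and 2 cells of that one. Summed over those 3 libraries, Nr4a1 stood at 384 CPM (366 to 403) in it, 194 (182 to 208) in the cycling Tcf7-low, 154 (142 to 166) in the Cxcr6-positive, 135 (122 to 148) in the resting Tcf7-positive and 119 (112 to 127) in the cycling Tcf7-positive cluster. It was at 103 and 90.6 CPM in the 52 and 40 cells that these libraries had in the Gzmc-high and Dapl1-high clusters. These sums mix libraries in unequal shares, and 595 of the 905 cycling Tcf7-positive cells came from knockout untreated. Within each of the 3 libraries the interval of the chemokine-high cluster lay above those of all other clusters with at least 20 cells, except that it overlapped the 28 Gzmc-high cells of knockout untreated. The cycling Tcf7-low cluster did not stand apart within libraries. It was at 199 CPM (179.9 to 219) in knockout with anti-PD-L1, where the resting Tcf7-positive cluster was at 181 (152 to 214), and at 177 (149.9 to 208) in knockout untreated, where the Cxcr6-positive cluster was at 181 (152 to 214). Nr4a2 stood at 288 CPM in the chemokine-high and in the resting Tcf7-positive cluster, 271 in the Cxcr6-positive and 269 in the cycling Tcf7-low cluster, with overlapping intervals. It was at 197 (187 to 208) in the cycling Tcf7-positive, 187 in the Dapl1-high and 162 in the Gzmc-high cluster. Within libraries the cycling Tcf7-positive cluster was at 188 CPM (169 to 209) in knockout with anti-PD-L1, apart from the chemokine-high, Cxcr6-positive, cycling Tcf7-low and resting Tcf7-positive ones. In knockout untreated, at 183 (169.9 to 196), it overlapped the chemokine-high and cycling Tcf7-low clusters among these. In wild-type with anti-PD-L1, at 245 (221 to 269.6), it overlapped the Cxcr6-positive and cycling Tcf7-low ones. Nr4a3 had yet another order, at 44.4 (38.4 to 51.1) in the chemokine-high and 40.3 (35.9 to 45.1) in the cycling Tcf7-positive cluster, and 32.7, 27.6 and 27.3 in the cycling Tcf7-low, resting Tcf7-positive and Cxcr6-positive ones. Over all 4 libraries, the chemokine-high cluster against the other CD8 T cells gave log2 ratios of 1.67 for Nr4a1, 0.41 for Nr4a2 and 0.62 for Nr4a3, in which the low wild-type untreated cells enter on 1 side alone.

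**Figure D2:**
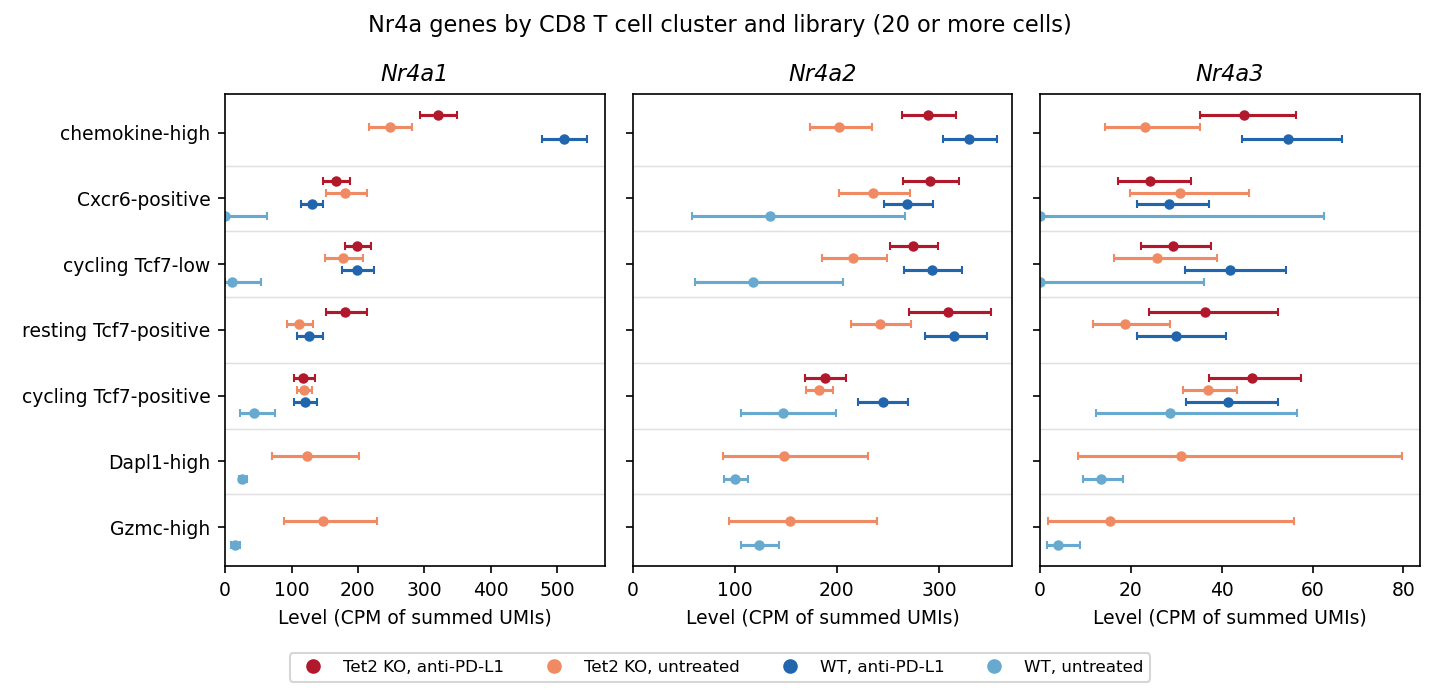
Nr4a levels by CD8 T cell cluster, in CPM of summed UMIs with exact Poisson 95% intervals, for each library with at least 20 cells in the cluster. Nr4a1 in the chemokine-high cluster reached 511 CPM in wild-type with anti-PD-L1, and the wild-type untreated points lie left of the others in each Nr4a1 row that has them.

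With anti-PD-L1 Nr4a1 was lower in knockout than in wild-type cells of the chemokine-high cluster, the 1 cluster past 1.5-fold. In the chemokine-high cluster Nr4a1 was at 320 CPM (293 to 349) in 290 knockout cells and 511 CPM (478 to 545) in 391 wild-type cells, a log2 fold of -0.67 (-0.83 to -0.52). In the resting Tcf7-positive cluster it was at 181 CPM in 134 knockout cells and 127 CPM in 260 wild-type cells (0.51, interval 0.18 to 0.85), and in the Cxcr6-positive cluster at 167 CPM in 247 knockout cells and 130.3 CPM in 332 wild-type cells (0.36, interval 0.10 to 0.62), both under 1.5-fold. The thinned shares of cells with Nr4a1 had overlapping intervals there, at 28.4% in knockout and 18.1% in wild-type cells of the resting Tcf7-positive cluster, and 25.9% in knockout and 23.2% in wild-type cells of the Cxcr6-positive one. In both cycling clusters the levels were alike, at 199 CPM in knockout and in wild-type cells of the Tcf7-low one and 118 and 120.4 CPM in knockout and wild-type cells of the Tcf7-positive one. Untreated knockout cells of the chemokine-high cluster had 248 CPM (216 to 282), below those with anti-PD-L1. Nr4a2 in that cluster was at 289.7 CPM in knockout with anti-PD-L1 and 329.9 in wild-type with anti-PD-L1 (-0.19, interval -0.36 to -0.01), and Nr4a3 at 44.9 and 54.6 CPM (-0.28, interval -0.74 to 0.17). The gap in Nr4a1 between these libraries was not shared in size by the other members. Between-library error is not included in any of these intervals. No share of all genes past 1.5-fold is given within clusters, so how common such folds are there is not shown.

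**Figure D3:**
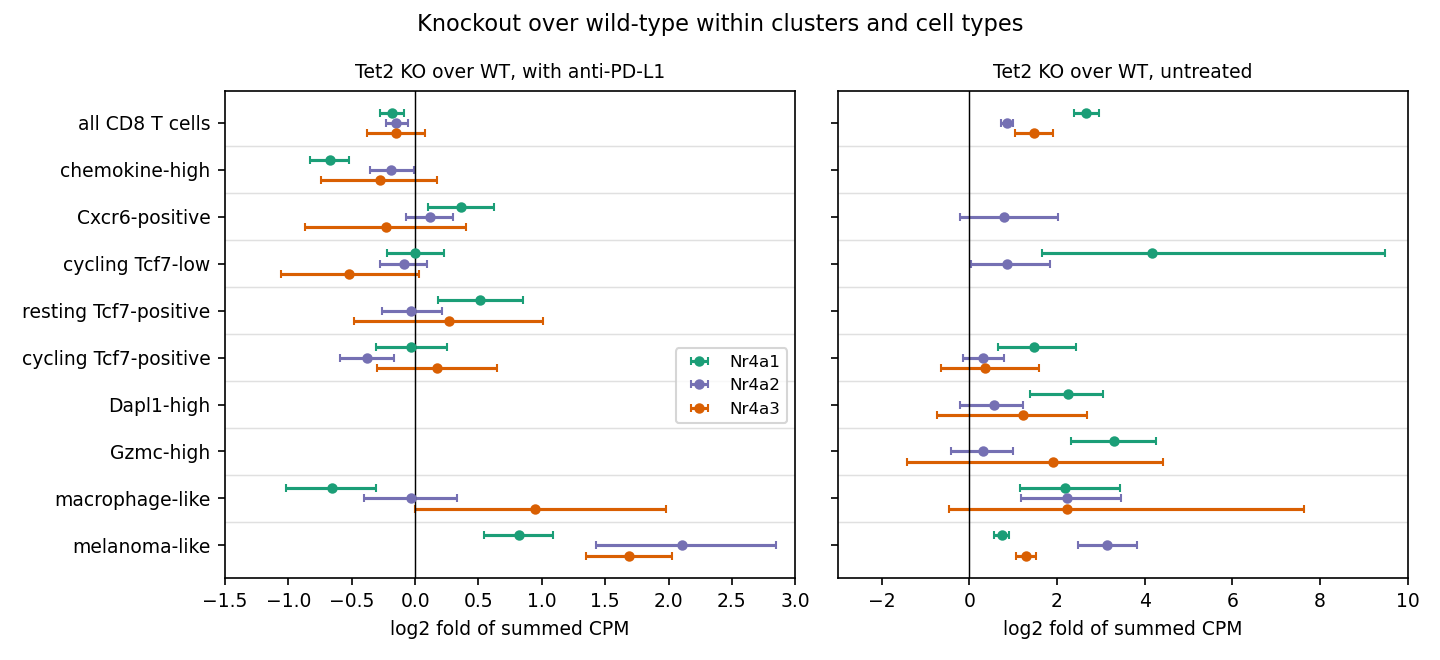
Log2 folds of Tet2 knockout over wild-type for each member, with anti-PD-L1 on the left and untreated on the right, over all CD8 T cells, within clusters with at least 20 cells in both libraries, and in macrophage-like and melanoma-like cells. Bars are exact conditional binomial 95% intervals, and the horizontal scales differ. With anti-PD-L1 Nr4a1 is at -0.67 in the chemokine-high cluster and 0.51 in the resting Tcf7-positive one, while all 3 members lie above 0 in melanoma-like cells on each side.

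Over all CD8 T cells of the 3 libraries other than wild-type untreated, Nr4a1 and Nr4a2 were seen in the same cell slightly more often than separate detection would give, but not in each cluster. In thinned CD8 T cells both were seen in 15.6% and 8.42% of cells in knockout with anti-PD-L1 and knockout untreated, against 14.6% and 0.621% in wild-type with anti-PD-L1 and wild-type untreated. The products of the separate shares were 11.2%, 7.59%, 12.3% and 0.648%. The share lay above the product in every cluster compared within the library of knockout with anti-PD-L1. There it was 17.7% against 10.9% in the cycling Tcf7-low and 6.99% against 5.29% in the cycling Tcf7-positive cluster. In each other library it lay on either side of the product, depending on the cluster. In knockout untreated it was 9.09% against 10.5% in the chemokine-high, 8.28% against 12.1% in the cycling Tcf7-low and 8.40% against 5.62% in the cycling Tcf7-positive cluster. In wild-type with anti-PD-L1 it was 26.6% against 21.8% in the chemokine-high and 6.54% against 7.79% in the resting Tcf7-positive cluster. None of the 3 was seen in 45.6%, 50.2%, 41.6% and 77.8% of cells, and all 3 in 9, 10, 18 and 0 cells. Across 18 pairs of library and cluster with at least 30 cells, log2(CPM + 10) of Nr4a1 and Nr4a2 had a Pearson r of 0.84, Nr4a1 and Nr4a3 of 0.76 and Nr4a2 and Nr4a3 of 0.65. Without the units of wild-type untreated, over 15 units, these were 0.44, 0.41 and 0.19. The relation between members therefore rested largely on that library, and the units share libraries, depth and clusters.

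In macrophage-like cells, led by Lyz2 and the complement genes C1qb, C1qa and C1qc, Nr4a1 and Nr4a2 were again lowest in wild-type untreated. Nr4a1 stood at 74.3 CPM (62.0 to 88.3) in 181 cells of knockout with anti-PD-L1 and 54.7 (45.2 to 65.6) in 404 of knockout untreated, against 118 (99.0 to 139) in 175 of wild-type with anti-PD-L1 and 12 (5.20 to 23.7) in 202 of wild-type untreated. Nr4a2 stood at 88.1, 56.1, 90.2 and 12 CPM. Both genes thus followed the order of libraries seen in the CD8 T cells, and Nr4a3 was rare, at 36, 15, 13 and 1 UMIs. Nr4a1 and Nr4a2 passed the floor there and Nr4a3 did not. Wild-type untreated held 8 UMIs of each, under 20 CPM, so their calls against it follow in part from the floor. In the untreated comparison of knockout over wild-type Nr4a1 had 2.18 (1.16 to 3.43) and Nr4a2 2.22 (1.19 to 3.46). Both were higher, as were 12.4% of 4644 genes, with 12.3% lower. For anti-PD-L1 over untreated in wild-type they had 3.29 (2.27 to 4.53) and 2.90 (1.88 to 4.15). Both were higher, as were 13.7% of genes, with 15.6% lower. With anti-PD-L1, Nr4a1 was lower in knockout (-0.66, interval -1.02 to -0.31), where 5.02% of genes were lower and 6.87% higher, while Nr4a2 had -0.03 (-0.40 to 0.33). In knockout, anti-PD-L1 over untreated gave 0.65 (0.30 to 1.01) for Nr4a2, where 5.84% of genes were higher and 3.23% lower, and 0.44 (0.07 to 0.82) for Nr4a1, under 1.5-fold. Dendritic-like cells were few, and their Nr4a1 was at 103, 145, 309.7 and 38.9 CPM in 7, 47, 15 and 28 cells of knockout with anti-PD-L1, knockout untreated, wild-type with anti-PD-L1 and wild-type untreated.

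T cell transcripts in macrophage-like cells did not follow the same order. The 7 T cell marker genes summed to 483 and 989.7 CPM in knockout with anti-PD-L1 and knockout untreated, against 1049 and 1019.6 CPM in wild-type with anti-PD-L1 and wild-type untreated, and to 9632 to 11286 CPM in CD8 T cells. Per 100 T cell marker UMIs, Nr4a2 had 18.2, 5.67, 8.60 and 1.18 UMIs in macrophage-like cells, against 2.48, 1.83, 2.55 and 1.15 in CD8 T cells of the same libraries. In wild-type untreated the ratio was thus about equal in both cell types, where macrophage-like cells had 8 Nr4a2 UMIs. For Nr4a1 it was 15.4, 5.53, 11.2 and 1.18 in macrophage-like cells, against 1.85, 1.33, 1.96 and 0.238 in CD8 T cells. The part of T cell RNA in these levels was not tested.

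**Figure D4:**
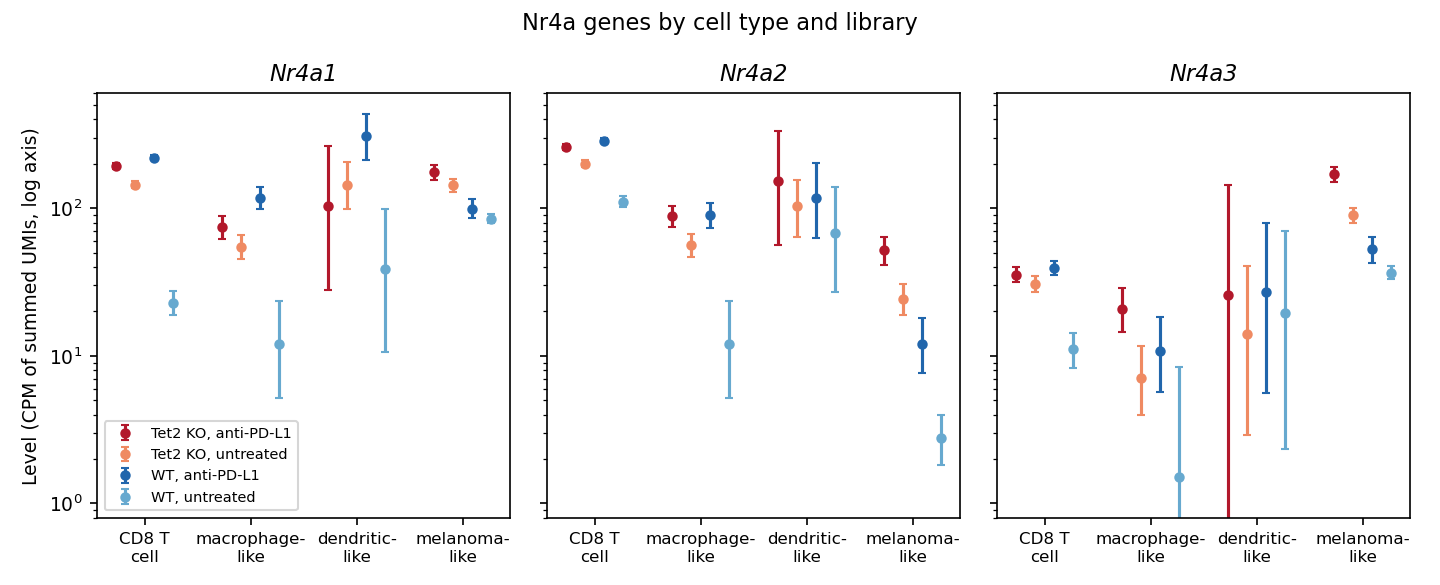
Levels of each Nr4a gene in 4 cell types and 4 libraries, in CPM of summed UMIs on a log axis, with exact Poisson 95% intervals (bars that meet the lower edge go on below it). Nr4a2 is highest in CD8 T cells and lowest in melanoma-like cells of wild-type untreated, at 2.76 CPM, and Nr4a3 is highest in melanoma-like cells, up to 169.6 CPM.

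Melanoma-like cells, which express the pigment cell gene Mlana, showed the members in other proportions. Over all 4 libraries Nr4a3 stood at 60.5 CPM in 1233 melanoma-like cells, against 31.3 CPM in CD8 T cells and 11.3 CPM in macrophage-like cells. Nr4a2 stood at 12.3 CPM against 227 CPM in CD8 T cells, and 925 of the melanoma-like cells came from wild-type untreated. Within each of the 4 libraries too, the tumour cells held more Nr4a3 and less Nr4a2 than the T cells. Nr4a1 had no such common direction, at 175 CPM in melanoma-like cells and 194 CPM in CD8 T cells of knockout with anti-PD-L1, 143 and 145 CPM in those of knockout untreated, 99.6 and 221 CPM in those of wild-type with anti-PD-L1, and 85.2 and 23.0 CPM in those of wild-type untreated.

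All 3 members were higher in melanoma-like cells from mice given knockout T cells, with and without anti-PD-L1. Nr4a1 was at 175 CPM (155 to 197) in knockout with anti-PD-L1 and 143 (129 to 157) in knockout untreated, against 99.6 (86.0 to 115) in wild-type with anti-PD-L1 and 85.2 (79.7 to 91.1) in wild-type untreated. Nr4a2 was at 51.9 (41.3 to 64.4), 24.3 (19.0 to 30.6), 12 (7.60 to 18) and 2.76 (1.83 to 3.98) CPM, and Nr4a3 at 169.6 (149.9 to 191), 89.5 (79.1 to 101), 52.7 (42.9 to 64.0) and 36.6 (33.0 to 40.5) CPM. The order of the libraries was the same for each gene. Neighbouring intervals overlapped only for Nr4a1, between both knockout libraries and between both wild-type libraries, and the genotypes lay apart. Log2 folds of knockout over wild-type were 0.74, 3.14 and 1.29 untreated for Nr4a1, Nr4a2 and Nr4a3, and 0.82, 2.11 and 1.69 with anti-PD-L1. All 3 members passed the floor, Nr4a2 only through the knockout libraries, where it was high, so that its calls follow in part from the floor. All 3 were higher in each of these comparisons, as were 6.36% of 5505 genes untreated and 6.68% with anti-PD-L1, while 4.36% and 8.77% were lower. Anti-PD-L1 over untreated gave 0.30, 1.09 and 0.92 in knockout, so that 2 members were higher where 2.71% of genes were and 4.67% were lower. It gave 0.22, 2.12 and 0.52 in wild-type, so that Nr4a2 alone passed 1.5-fold, where 3.52% of genes were higher and 2.78% lower, but both of its wild-type levels lay under 20 CPM.

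Depth and cell numbers moved with these values within each genotype but not between the genotypes. Wild-type with anti-PD-L1 was deeper and had fewer cells than knockout untreated, yet held less of each member. Knockout with anti-PD-L1 had 50 melanoma-like cells and knockout untreated 189, against 69 for wild-type with anti-PD-L1 and 925 for wild-type untreated, with median depths of 31763 and 13820 against 25574 and 10199 UMIs, and the part of depth in the result was not tested. Thinned to 2000 UMIs, Nr4a1 was seen in 32.0% (19.5% to 46.7%) and 21.7% (16.0% to 28.3%) of cells, against 18.8% (10.4% to 30.1%) and 13.6% (11.5% to 16.0%), and Nr4a2 in 12%, 4.76%, 1.45% and 0.649%. Shares of cells followed the same order as the levels. The order held too within the Mlana-high melanoma-like cluster, where Nr4a2 was at 58.6 and 24.4 CPM in knockout with anti-PD-L1 and knockout untreated, against 13.2 and 3.22 CPM in wild-type with anti-PD-L1 and wild-type untreated, and Nr4a3 at 153, 68.2, 56.6 and 31.0 CPM. In the smaller Gsta4-high melanoma-like cluster Nr4a3 broke it among wild-type cells, at 220.2 and 131 CPM in knockout with anti-PD-L1 and knockout untreated, against 32.5 CPM in 9 cells of wild-type with anti-PD-L1 and 54.9 CPM in 282 of wild-type untreated. T cell markers summed to 37.3 and 96.3 CPM in melanoma-like cells of knockout with anti-PD-L1 and knockout untreated, and to 70.4 and 88.2 CPM in those of wild-type with anti-PD-L1 and wild-type untreated. Per 100 T cell marker UMIs there were 139, 25.3, 17.0 and 3.12 UMIs of Nr4a2, more than the 2.48, 1.83, 2.55 and 1.15 of CD8 T cells. Macrophage markers summed to 1058 and 1083 CPM against 739 and 964 CPM, and in the macrophage-like cells themselves to 34832 to 41745 CPM. In knockout with anti-PD-L1 the highest melanoma-like cell held 33 Nr4a3 UMIs of 268.

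Other genes of the early response to T cell receptor signalling were higher in the same comparisons as the Nr4a genes in CD8 T cells, and also in macrophage-like cells, by counts over a list chosen with earlier results known. Of 33 listed genes, the members not included, 25 passed the floor in CD8 T cells. For untreated knockout over wild-type 16 of these were higher and 1 lower, with a median log2 fold of 0.83 against -0.10 over all genes, of which 7.94% were higher and 6.88% lower. Gadd45b, a stress response gene, had the largest fold, at 139.7 CPM in knockout and 12.1 CPM in wild-type (3.53). The chemokine genes Xcl1 and Ccl4, the most abundant members, were at 1031 and 560.5 CPM in knockout untreated, against 732 and 314 CPM in wild-type untreated, and Cd83, an activation marker, was the 1 lower gene, at 18.8 and 33.8 CPM (-0.85). With anti-PD-L1, 0 were higher in knockout and 1 lower, again Cd83 (-1.32), with a median of -0.10 against 0.09, where 1.12% and 1.45% of all genes were higher and lower. For anti-PD-L1 over untreated, 6 were higher in knockout, with a median of 0.37 against -0.01 and 2.86% of all genes higher. In wild-type 20 were higher, with a median of 1.08 against -0.18 and 11.4% of all genes higher. In both genotypes 0 were lower. In macrophage-like cells, which have no T cell receptor, 21 of the 33 passed the floor. There 10 were higher and 2 lower for untreated knockout over wild-type (median 0.56 against -0.05), beside 12.4% and 12.3% of all genes. For anti-PD-L1 over untreated in wild-type 16 were higher and 0 lower (1.21 against -0.07), beside 13.7% and 15.6% of all genes. In knockout 9 were higher and 1 lower (0.56 against 0.05), beside 5.84% and 3.23%. For knockout over wild-type with anti-PD-L1, 1 was higher and 5 lower (-0.20 against 0.07), beside 6.87% and 5.02%.

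The calcineurin and NFAT genes past 1.5-fold were too few to be set apart from the shares of all genes. Of 20 calcineurin and NFAT genes 12 passed the floor, and the median log2 folds were -0.02 against -0.10 over all genes for knockout over wild-type untreated and 0.02 against 0.09 with anti-PD-L1. For anti-PD-L1 over untreated they were 0.09 against -0.01 in knockout and 0.13 against -0.18 in wild-type. Nfat5, a factor of the NFAT family, was the 1 gene higher for untreated knockout over wild-type, at 31.4 CPM in knockout and 20.3 CPM in wild-type. Of all genes 7.94% were higher and 6.88% lower in that comparison. In the wild-type treatment comparison 2 calcineurin and NFAT genes were higher and 1 lower, beside 11.4% and 20.4% of all genes. Orai1, the calcium channel, was at 126 CPM with anti-PD-L1 and 71.1 CPM untreated (0.82). Of 20 RXR partners and other nuclear receptors, 3 passed the floor and 0 were past 1.5-fold for untreated knockout over wild-type. The liver X receptor gene Nr1h2 was at 46.3 CPM in knockout and 35.3 CPM in wild-type (0.39), and the glucocorticoid receptor gene Nr3c1 at 24.1 and 17.4 CPM (0.47). The 1 call in the other comparisons was Nr3c1, higher with anti-PD-L1 in wild-type (0.63). Of 16 exhaustion regulators and inhibitory receptors 10 passed the floor. For untreated knockout over wild-type 2 were higher and 3 lower (median 0.14 against -0.10), beside 7.94% and 6.88% of all genes. For knockout over wild-type with anti-PD-L1, 0 were higher and 1 lower (0.02 against 0.09), beside 1.12% and 1.45%. For anti-PD-L1 over untreated, 2 were higher and 0 lower in knockout (0.41 against -0.01), beside 2.86% and 1.02%. In wild-type 5 were higher and 2 lower (0.55 against -0.18), beside 11.4% and 20.4%. Ctla4, an inhibitory receptor, was at 242 CPM in knockout and 119 CPM in wild-type (1.02), and for anti-PD-L1 over untreated in wild-type Tox, which encodes a factor needed for exhaustion, was at 47.3 CPM with anti-PD-L1 and 112 CPM untreated (-1.25), opposite to the Nr4a genes.

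Listed genes that respond to tissue handling were also higher by their median in both comparisons against wild-type untreated, though some heat shock genes were lower. This held in CD8 T cells and macrophage-like cells, while in melanoma-like cells the medians were near those of all genes. Of 25 immediate early and heat shock genes, 22 passed the floor in CD8 T cells. The list shares no gene with the early response list. For untreated knockout over wild-type 10 of them were higher against 2 lower, with a median of 0.48 against -0.10 over all genes, of which 7.94% were higher and 6.88% lower. For anti-PD-L1 over untreated in wild-type it was 11 against 4, with a median of 0.71 against -0.18 over all genes, of which 11.4% were higher and 20.4% lower. For knockout over wild-type with anti-PD-L1 the median was 0.03 against 0.09, and for anti-PD-L1 over untreated in knockout 0.10 against -0.01. Fosb, an immediate early factor, had the largest fold for untreated knockout over wild-type, at 10.8 and 2.66 CPM (2.02). Both levels lay under 20 CPM. Fosb passed the floor only through the anti-PD-L1 libraries, at 29.1 CPM in knockout and 42.2 CPM in wild-type. Hspa1a, a heat shock chaperone, went the other way untreated, at 76.4 CPM in knockout and 145 CPM in wild-type (-0.92). For anti-PD-L1 over untreated in wild-type Fosb had 3.98, while Hspa1a had -1.76 and the abundant chaperone gene Hsp90ab1 -0.84. In macrophage-like cells 13 of 24 were higher against 2 lower for untreated knockout over wild-type (median 0.70 against -0.05 over all genes). Of all genes there 12.4% were higher and 12.3% lower. For anti-PD-L1 over untreated in wild-type it was 17 against 1 (1.26 against -0.07), beside 13.7% and 15.6% of all genes. In knockout it was 8 against 0 (0.39 against 0.05), beside 5.84% and 3.23%. For knockout over wild-type with anti-PD-L1 it was 2 against 3 (0.00 against 0.07), beside 6.87% and 5.02%. In melanoma-like cells 7 of 21 were higher against 1 lower for untreated knockout over wild-type (median 0.11 against 0.00 over all genes). Of all genes there 6.36% were higher and 4.36% lower. For knockout over wild-type with anti-PD-L1 it was 5 against 1 (0.10 against -0.02), beside 6.68% and 8.77% of all genes. For anti-PD-L1 over untreated in wild-type it was 6 against 3 (0.05 against -0.02), beside 3.52% and 2.78%. The part of handling in the low Nr4a values of wild-type untreated was not tested.

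The genes whose pattern over the 18 units of library and cluster was most like that of Nr4a1 were Tgif1, Gadd45b, Nfkbid, Atg7 and Kdm6b, with r of 0.95 to 0.97. Without wild-type untreated, over 15 units, r was 0.89 for Tgif1, a transcriptional repressor, 0.96 for Gadd45b, 0.92 for Nfkbid, a regulator of NF-κB, 0.80 for Atg7, an autophagy enzyme, and 0.93 for Kdm6b, a histone demethylase. Gadd45b stood at 224 CPM in knockout with anti-PD-L1 and 139.7 in knockout untreated, against 224 in wild-type with anti-PD-L1 and 12.1 in wild-type untreated. For Nr4a2 they were Fosl2, P2ry10, Sertad1, Nmrk1 and Vgll4, with r of 0.92 to 0.94, and 0.71 to 0.84 without wild-type untreated. Fosl2, a member of the AP-1 family, stood at 89.9, 72.9, 107 and 7.79 CPM in the same order of libraries. For Nr4a3 they were Rel, Phactr2, Tgfb1, Rnf19a and Kdm6b, with r of 0.76 to 0.88. Rel, a subunit of NF-κB, had 0.88, and 0.69 without wild-type untreated, where the other 4 had 0.38 to 0.66. The 5 genes for each member were chosen over all 18 units, and no search was made over the 15. Nr4a1 and Nr4a3 shared Kdm6b.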

How the data were processed

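Raw counts of UMIs per barcode and gene were deposited by the authors, 1 table for each of 4 libraries made with 10x 3′ version 2 chemistry per the labels' protocols. Per the submitters' processing notes the build was mm10, and the tools named, with no step given, were DESeq2, HTSeq, bedtools, Bowtie2, HISAT2, Genrich 0.5 and Trim Galore 0.5.0. How UMIs were counted and cells called is not given in the sources used here. The 8 RNA and 8 ATAC samples were not analysed here. Each table lists its barcodes up to 2 times with different counts. The later listing was used, and the earlier was an alternative. Libraries shared 1 to 10 barcodes in pairs.

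Cells needed 500 genes, no more than 10% mitochondrial UMIs and fewer than 10 UMIs of red blood cell or mast cell markers. Doublets were not called or removed. Cells were clustered without the Nr4a genes (scanpy 1.11.5, 2000 variable genes, 30 components, 15 neighbours, Leiden resolution 1.0, no integration), which gave 13 clusters. The 7 taken as CD8 T cells had mean CD8 and CD3 levels at least 0.5 times those of the highest cluster. Other clusters were named from marker lists. UMIs were summed per library and cluster or cell type and scaled to CPM. Intervals are exact Poisson, exact conditional binomial for folds and Clopper-Pearson for shares (scipy 1.17.1), at 95% and for counting error only. UMIs within a cell are not independent, so the intervals are too narrow. For a fold a count of 0 was set to 3. The fold and its call were tested on simulated counts. TMM factors came from edgeR 4.0.16.

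The members, the gene lists and the rule for named genes (the members, 5 most alike genes for each, and from each list the 2 most abundant genes and the largest fold each way) were chosen with earlier results of these data known. Of the genes this rule picks from the lists, the text names some, and 1 is not reported here. Promoter sequences come from RefSeq on GRCm38.p6, with all 3 members matched.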

Additional observations from a re-analysis of the deposited data

Results flagged for a closer look

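Knockout was past 1.5-fold over wild-type in untreated CD8 T cells for each Nr4a gene, and within 1.5-fold of it with anti-PD-L1. This difference between treatments was not tested, since each group is 1 library. For Nr4a1 knockout over wild-type was 2.66 on the log2 scale untreated and -0.18 with anti-PD-L1. For Nr4a2 it was 0.86 and -0.15, and for Nr4a3 1.47 and -0.15. The untreated values rest on the wild-type untreated library, in which Nr4a1 and Nr4a2 were also low in macrophage-like cells. With anti-PD-L1 the interval for Nr4a3 (-0.38 to 0.08) included 0.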

How the results depend on the processing

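No paired analysis was possible because each group is 1 library. Each of the 12 folds of a member in CD8 T cells kept its sign under all 12 alternatives (9 planned, 3 chosen after seeing the data), and of the members' log2 values under them and under the other clusterings 133 stayed within the main counting interval and 20 did not. The cause of a move was not tested. Knockout over wild-type untreated was 2.37 for Nr4a1 with CD8 T cells taken by each cell's own UMIs, 4.21 for Nr4a1 and 1.01 for Nr4a2 outside mitotic clusters, and 2.27, 0.47 and 0.94 for Nr4a1, Nr4a2 and Nr4a3 with the same mix of clusters, where Nr4a2 lost its 1.5-fold call. Outside mitotic clusters only 42 wild-type untreated cells with 1 Nr4a1 UMI were left. With anti-PD-L1, Nr4a2 was -0.04 outside mitotic clusters. For anti-PD-L1 over untreated in knockout, Nr4a3 was 0.58 outside mitotic clusters and Nr4a1 0.18 with the same mix of clusters. In wild-type, Nr4a1 was 3.65 with cells weighted equally, 2.97 by own UMIs and 4.83 outside mitotic clusters, and Nr4a2 was 0.99 with the same mix of clusters. The log2 ratio of the chemokine-high cluster over other CD8 T cells was 1.77 for Nr4a1 with the members left in for clustering, 1.95, 0.64 and 0.97 for Nr4a1, Nr4a2 and Nr4a3 at resolution 0.5, and 1.85, 0.54 and 1.05 at 1.5. Unthinned, shares of CD8 T cells with a UMI in knockout with anti-PD-L1, knockout untreated, wild-type with anti-PD-L1 and wild-type untreated were 59.3%, 43.3%, 54.5% and 8.07% for Nr4a1, 71.9%, 55.1%, 67.7% and 31.8% for Nr4a2 and 21.1%, 13.7%, 18.9% and 4.08% for Nr4a3. Genes past 1.5-fold numbered 685 and 119 for knockout over wild-type, untreated and with anti-PD-L1, and 179 and 1471 for anti-PD-L1 over untreated in knockout and wild-type. Without a floor they were 3365, 1926, 2007 and 4564, and with a floor of 50 CPM 323, 38, 92 and 818. Nr4a3 is limited by depth, with 54 UMIs in wild-type untreated CD8 T cells.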
